A study of Mus musculus with 6 samples.

Results

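A set of 9 tubulin genes and the gene of cytoplasmic gamma-actin, 10 of the 47069 genes in the deposited table, was followed in LβT2 cells. Members were chosen by name: 4 alpha tubulins (*Tuba1a*, *Tuba1b*, *Tuba1c*, *Tuba4a*), 5 beta tubulins (*Tubb2a*, *Tubb2b*, *Tubb3*, *Tubb4b*, *Tubb5*) and *Actg1*. LβT2 is an immortalized mouse gonadotrope line of the anterior pituitary. All 6 libraries came from cells at passage 14 that had received 2 nM gonadotropin-releasing hormone (GnRH) for 40 min, so no library shows the cells without the hormone. In the fresh group (3 libraries) the cells were lysed directly after trypsinization. In the RNA-Best group (3 libraries) they were first kept in RNA-Best, a proprietary stabilizing reagent, in the cold over several days. The comparison asks how far storage in this reagent alters the measured transcripts. Separate cultures are not stated for the replicates in any label, and p-values therefore measure the spread between these libraries.

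Microtubules are polymers of alpha and beta tubulin dimers, and each subunit is made from several genes, called isotypes, whose products differ most in their C-terminal tails. Cells adjust tubulin mRNA to the pool of free dimers: when free tubulin accumulates, the protein Ttc5 recognises the opening residues of a tubulin chain as it leaves the ribosome, and the mRNA being translated is degraded. Gamma-actin is, with beta-actin, one of the cytoplasmic actins found in nearly every cell, and actin genes are known targets of serum response factor, which binds CArG boxes.

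Each library held between 4909418 and 47438746 counts, with all 3 fresh libraries above the deepest RNA-Best library. Gonadotrope markers were present: 6 of 7 reached a CPM (counts scaled to the library's total, per 1000000) of 1, with sums between 3584 and 3620 CPM in fresh and between 3042 and 3122 CPM in RNA-Best libraries. The markers did not all move together. *Cga* stood between 1792 and 1831 CPM in fresh and between 1410 and 1448 CPM in RNA-Best libraries. *Nr5a1*, *Pitx1* and *Gata2* were likewise lower in every RNA-Best library than in any fresh library. *Gnrhr* instead lay between 109 and 125 CPM in fresh and between 159 and 173 CPM in RNA-Best libraries, and *Lhb* overlapped. *Fshb* was at 0 in all 6. Of 6 markers of other pituitary cells, only *Tshb* reached 1 CPM, with *Prl* and *Pou1f1* at 0 and list sums between 0.789 and 2.28 CPM. Fibroblast markers summed to at most 1.04 CPM and blood markers to at most 0.104 CPM. In bulk samples, fewer cells of a type and less RNA per cell cannot be told apart.

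The opening of the coding sequence is shown because this is where the nascent chain is read in tubulin autoregulation. The 24 bases below run 5′ to 3′ from the GRCm38 assembly, and the capitals mark the first 12, which are the first 4 codons.
Tuba1a: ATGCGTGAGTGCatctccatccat
Tuba1b: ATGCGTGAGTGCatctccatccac
Tuba1c: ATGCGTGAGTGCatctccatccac
Tuba4a: ATGCGCGAGTGCatttcagtccat
Tubb2a: ATGCGCGAGATCgtgcacatccag
Tubb2b: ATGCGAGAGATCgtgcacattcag
Tubb3: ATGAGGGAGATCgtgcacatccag
Tubb4b: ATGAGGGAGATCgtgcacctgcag
Tubb5: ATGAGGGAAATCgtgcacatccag
Actg1: ATGGAAGAAGAAatcgccgcactc
The capitals were identical in *Tuba1a*, *Tuba1b* and *Tuba1c*, and identical in *Tubb3* and *Tubb4b*.

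The end of the coding sequence is shown because it shows how little separates some isotypes as reads. The last 60 coding bases of 4 beta isotypes follow. Capitals mark the bases that differ within the pair *Tubb2a* and *Tubb2b*.
Tubb2a: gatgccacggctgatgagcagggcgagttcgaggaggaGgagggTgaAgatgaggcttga
Tubb2b: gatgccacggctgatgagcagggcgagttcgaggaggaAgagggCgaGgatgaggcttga
Tubb3: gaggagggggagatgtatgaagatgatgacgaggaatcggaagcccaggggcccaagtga
Tubb5: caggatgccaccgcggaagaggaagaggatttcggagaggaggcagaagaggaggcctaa
This pair differed at 3 of 60 bases.

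Over whole coding sequences, *Tuba1a* and *Tuba1b* were identical at 98.3% of aligned bases, *Tuba1b* and *Tuba1c* at 97.9%, and *Tuba1a* and *Tuba1c* at 97.1%. *Tuba4a* shared between 84.7% and 85.2% with these 3 genes. *Tubb2a* and *Tubb2b* were identical at 96.5%, whereas the other beta pairs lay between 81.4% and 84.6%. *Actg1* and *Actb*, the beta-actin gene, were identical at 88.7%.

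In GRCm38, *Tuba1b* (chr15:98931425-98934565) and *Tuba1a* (chr15:98949837-98953703) lay close together on the minus strand, with *Tuba1c* (chr15:99029891-99038110) near them on the plus strand. *Tubb2a* (chr13:34074274-34078007) and *Tubb2b* (chr13:34126748-34130466) formed another neighbouring pair on the minus strand. The remaining members lay apart, *Tuba4a* on chromosome 1, *Tubb4b* on chromosome 2, *Tubb3* on chromosome 8, *Actg1* on chromosome 11 and *Tubb5* on chromosome 17. Each tubulin member had 4 exons in its main transcript and *Actg1* had 6.

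All 10 members were lower in RNA-Best than in fresh libraries past a false discovery rate of 5% (edgeR's quasi-likelihood test, Benjamini-Hochberg adjustment over the 14736 genes tested). The changes were small: by the fitted fold change *Tubb2a* fell by 23.2%, *Tuba1b* fell by 21.4% and *Tubb5* fell by 12.6%. Among all tested genes 50.8% were called, 24.8% as lower and 26% as higher. In 9 of the 10 members every RNA-Best library lay below every fresh library, which held for 27.1% of tested genes, while 30.4% lay above throughout. The median log2 fold change of the members, RNA-Best minus fresh, was -0.27, beside -0.01 over all tested genes. Together the 9 tubulin members held 0.607% ± 0.00411 of the counts in fresh and 0.509% ± 0.00529 in RNA-Best libraries (SD, n = 3 each).

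*Tuba1b*, a ubiquitous alpha tubulin, stood at 1370, 1396 and 1377 CPM in fresh libraries and at 1110, 1088 and 1091 CPM in RNA-Best libraries. The groups were far apart, and the 3 values of each lay close together. Its log2 fold change was -0.35 (SE 0.03), with an adjusted p of 1.56e-13 in edgeR.

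*Tuba1a*, the alpha isotype best known from developing neurons, measured 1221, 1226 and 1234 CPM in fresh libraries against 986, 977 and 1010 CPM in RNA-Best libraries. Again no library crossed into the range of the other group. The log2 fold change was -0.32 (SE 0.03, edgeR adjusted p = 1.49e-12).

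*Tuba1c*, a further broadly expressed alpha tubulin, measured 881, 904 and 899 CPM when fresh and 753, 743 and 748 CPM after RNA-Best. The RNA-Best libraries were all lower, and the log2 fold change was -0.27 (SE 0.03, edgeR adjusted p = 8.31e-11).

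*Tuba4a*, the most divergent of the alpha members, was a low transcript in these cells. It stood at 17.2, 15.8 and 16.6 CPM in fresh and at 12.7, 17.3 and 13.3 CPM in RNA-Best libraries. The groups overlapped, since RNA-Best library 2, which held 85 counts of the gene, had the highest value of all 6. The log2 fold change of -0.26 (SE 0.09) passed in edgeR with an adjusted p of 0.0134. The call was lost without RNA-Best library 1 (-0.19, adjusted p = 0.131) and without RNA-Best library 3 (-0.21, adjusted p = 0.138).

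Among the beta isotypes, *Tubb5*, which encodes the major class I beta tubulin, was the most abundant. It stood at 1967, 1919 and 1976 CPM in fresh and at 1697, 1708 and 1767 CPM in RNA-Best libraries, without overlap. Its log2 fold change was -0.19 (SE 0.03, edgeR adjusted p = 1.48e-07).

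*Tubb4b*, a beta isotype found in most tissues and prominent in ciliated cells, measured 498, 500 and 525 CPM against 431, 442 and 446 CPM. Every fresh library lay above every RNA-Best library. The log2 fold change was -0.22 (SE 0.03, edgeR adjusted p = 6.86e-08).

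*Tubb3*, the class III beta tubulin used as a neuronal marker, showed the weakest change. Its fresh libraries stood at 51.1, 51.2 and 51.2 CPM and its RNA-Best libraries at 44.4, 50.7 and 46.7 CPM. The RNA-Best values were lower but spread over a wider range, and RNA-Best library 2 came close to the fresh libraries. The log2 fold change was -0.14 (SE 0.05, edgeR adjusted p = 0.0142). Without RNA-Best library 1 it was -0.11 (adjusted p = 0.138) and without RNA-Best library 3 it was -0.14 (adjusted p = 0.0726), so that both calls were lost.

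*Tubb2a* and *Tubb2b*, which are close copies best known from neurons, were low. *Tubb2a* measured 19.3, 19.4 and 21.1 CPM in fresh and 16.1, 14.6 and 14.9 CPM in RNA-Best libraries. The groups did not overlap, and the log2 fold change was -0.38 (SE 0.08, edgeR adjusted p = 8.94e-05). *Tubb2b* measured 14.1, 14.0 and 12.3 CPM against 11.4, 9.44 and 11.4 CPM, again without overlap (log2 fold change -0.34, SE 0.09, edgeR adjusted p = 0.00266). Its lowest RNA-Best value rested on 46.3 counts.

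*Actg1* stood at 1161, 1156 and 1134 CPM in fresh and at 1023, 963 and 976 CPM in RNA-Best libraries. No values overlapped, and the log2 fold change was -0.23 (SE 0.03, edgeR adjusted p = 4.48e-09). *Actb*, its closest paralog and no member of the set, measured 1835, 1809 and 1749 CPM against 1687, 1577 and 1588 CPM. Its log2 fold change was -0.17 (SE 0.03, edgeR adjusted p = 5.42e-06), and -0.11 (adjusted p = 0.00255) with an offset for transcript length.

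**Figure D1:**
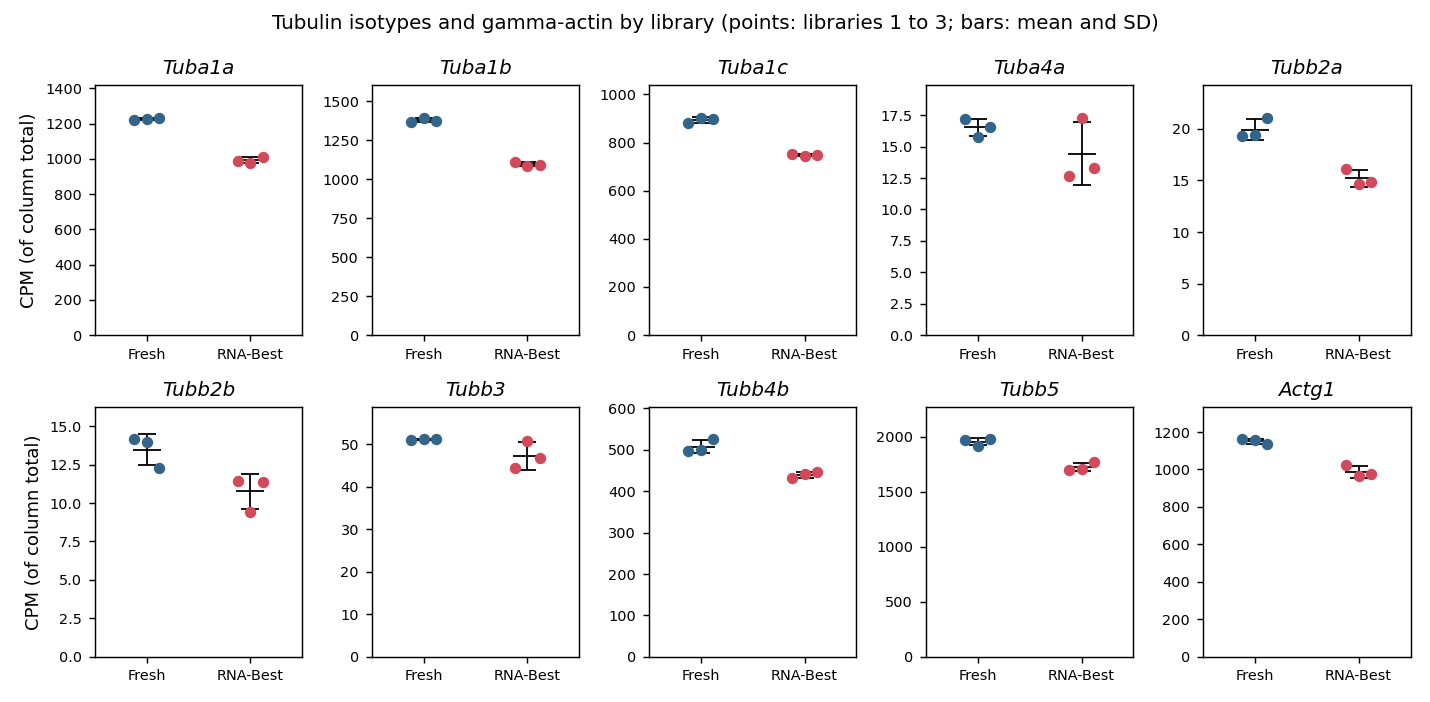
Level of each member in CPM, scaled to the library's total, with 1 point per library and the mean with SD (n = 3) as bars, separately for fresh and RNA-Best libraries. RNA-Best points lie below all fresh points in 9 panels, and in *Tuba4a* RNA-Best library 2 is the highest of the 6.

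Transcript length moved with the difference between the groups and is given beside it. Over all tested genes the median log2 fold change was -0.18 for exonic lengths of 1 to 2 kb, -0.13 for 2 to 3 kb and -0.04 for 3 to 5 kb, but 0.13 for 5 to 10 kb and 0.32 above 10 kb. The members were between 1610 bases (*Tubb2a*) and 3701 bases (*Tuba4a*) long, with a median of 2188 bases, against 3924 bases over all tested genes. In the bin of 1 to 2 kb, which held *Tuba1a*, *Tuba1b*, *Tubb2a* and *Tubb3*, 44.9% of genes were called lower. In the bin of 2 to 3 kb, which held *Tuba1c*, *Tubb2b*, *Tubb4b* and *Actg1*, the share was 40.6%, and in that of 3 to 5 kb, which held *Tuba4a* and *Tubb5*, it was 25.8%.

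**Figure D2:**
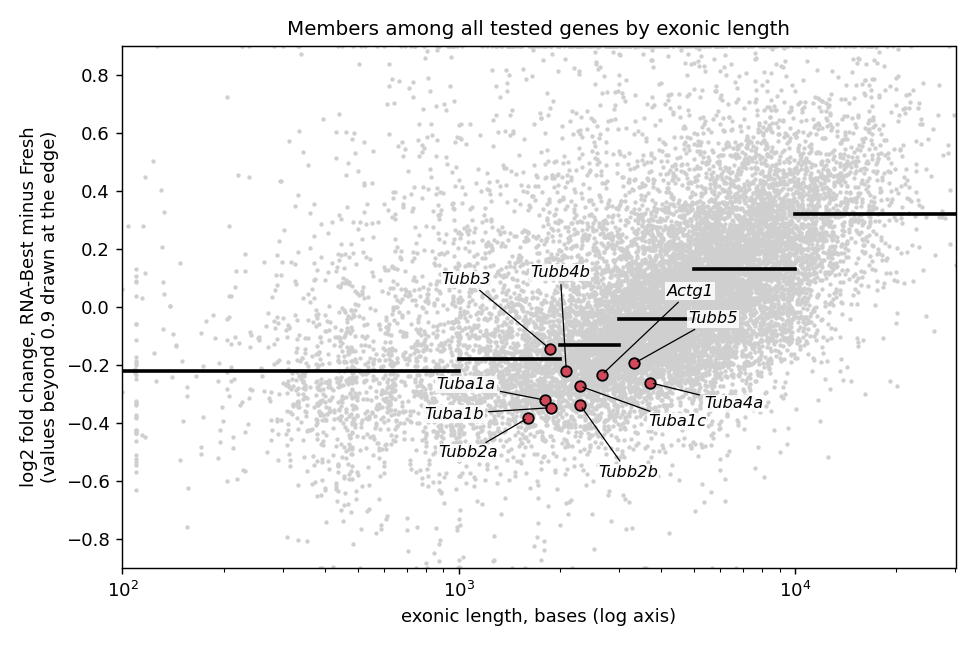
Log2 fold change, RNA-Best minus fresh, against exonic length in bases on a log axis, with 1 grey point per tested gene and the members in red. Black lines give the median of all tested genes in each length bin, from -0.22 up to 1 kb to 0.32 above 10 kb. In it, 9 members lie below the line of their bin and *Tubb3* lies above it, and genes longer or shorter than the axis are not drawn.

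When an offset for exonic length was fitted in each library, all 10 members kept a negative log2 fold change and 9 stayed past the threshold, while 25.2% of all tested genes were called lower. The median of the members was then -0.21, beside -0.04 over all tested genes. *Tubb3* lost its call, at -0.05 (edgeR adjusted p = 0.426). *Tuba1b* moved to -0.25, *Tuba1a* to -0.22 and *Tuba1c* to -0.20, and *Tuba4a*, the longest member, hardly moved, at -0.25. *Tubb5* stood at -0.17, *Actg1* at -0.17 and *Tubb4b* at -0.14.

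**Figure D3:**
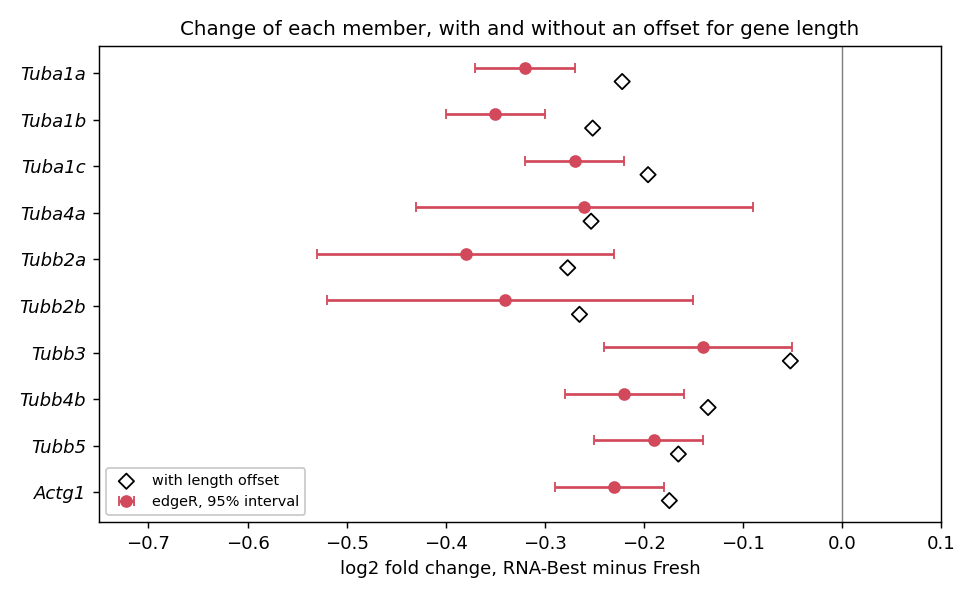
Log2 fold change of each member, RNA-Best minus fresh, as edgeR's estimate with an approximate 95% interval (red points and bars). Open diamonds give the estimate with a length offset. The interval is a normal approximation from an SE derived from edgeR's test statistic, and it takes no account of degrees of freedom. All intervals lie below 0, and the diamond of *Tubb3*, at -0.05, is the closest to 0.

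Levels were compared between genes as CPM per kilobase of exonic length. *Tuba1b* led in fresh libraries with 737 ± 7.25 CPM per kb (SD, n = 3), followed by *Tuba1a* with 681 ± 3.50, *Tubb5* with 587 ± 9.28, *Actg1* with 433 ± 5.45, *Tuba1c* with 391 ± 5.34 and *Tubb4b* with 243 ± 7.38 CPM per kb. The remaining members formed a much lower tier, in which *Tubb3* stood at 27.4 ± 0.0359, *Tubb2a* at 12.4 ± 0.632, *Tubb2b* at 5.88 ± 0.447 and *Tuba4a* at 4.46 ± 0.190 CPM per kb. By exonic length the order was the same in RNA-Best libraries, from 585 ± 6.23 CPM per kb in *Tuba1b* to 3.90 ± 0.680 CPM per kb in *Tuba4a*. Neighbours in this order did not overlap between libraries of a group, except *Tubb2b* and *Tuba4a* in RNA-Best. The order depended on the length used. Divided by the longest transcript, the fresh level of *Tubb5* was 738 CPM per kb, above *Tuba1a* at 681 and below *Tuba1b* at 792 CPM per kb. In RNA-Best libraries *Tubb5* then led with 651 CPM per kb, ahead of *Tuba1b* with 629 CPM per kb, and *Tuba4a* (5.08 CPM per kb) stood above *Tubb2b* (4.93 CPM per kb).

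Isotype shares were computed from these levels within the alpha and the beta family, and 11 shares and ratios were tested by a two-sided exact permutation test, for which 0.1 is the smallest p that 3 libraries against 3 allow. None could pass 0.05. *Tuba1b* made up 40.6%, 40.8% and 40.4% of the summed alpha level in fresh libraries and 40.2%, 40.0% and 39.5% in RNA-Best libraries. Its share was lower in all 3 RNA-Best libraries (exact p = 0.1, adjusted p = 0.22), by less than a percentage point. *Tuba1c* moved the other way, from 21.6% ± 0.136 to 22.3% ± 0.108 (SD, n = 3 each, exact p = 0.1, adjusted p = 0.22). The share of *Tuba1a* was 37.5% ± 0.231 in fresh and 37.5% ± 0.460 in RNA-Best libraries, with overlapping values. *Tuba4a* held 0.246% ± 0.0123 and 0.266% ± 0.0487, also overlapping, and without RNA-Best library 2 the difference, RNA-Best minus fresh, was -0.00779 percentage points.

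In the beta family, *Tubb2a* held 1.37%, 1.40% and 1.47% of the summed level in fresh and 1.32%, 1.19% and 1.18% in RNA-Best libraries, without overlap (exact p = 0.1, adjusted p = 0.22). *Tubb5* held 67.0% ± 0.475 against 67.5% ± 0.353, and *Tubb4b* 27.8% ± 0.493 against 27.4% ± 0.220 (SD, n = 3 each). Both overlapped between the groups, as did *Tubb3* (3.13% and 3.30%) and *Tubb2b* (0.671% and 0.610%). The ratio of the summed alpha to the summed beta level was 2.05, 2.12 and 2.04 in fresh and 1.95, 1.90 and 1.88 in RNA-Best libraries. It was lower in every RNA-Best library (exact p = 0.1, adjusted p = 0.22). The ratio of *Actg1* to *Actb* was likewise lower in all of them, at 0.645 ± 0.00791 against 0.615 ± 0.00426 (SD, n = 3 each, exact p = 0.1, adjusted p = 0.22).

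**Figure D4:**
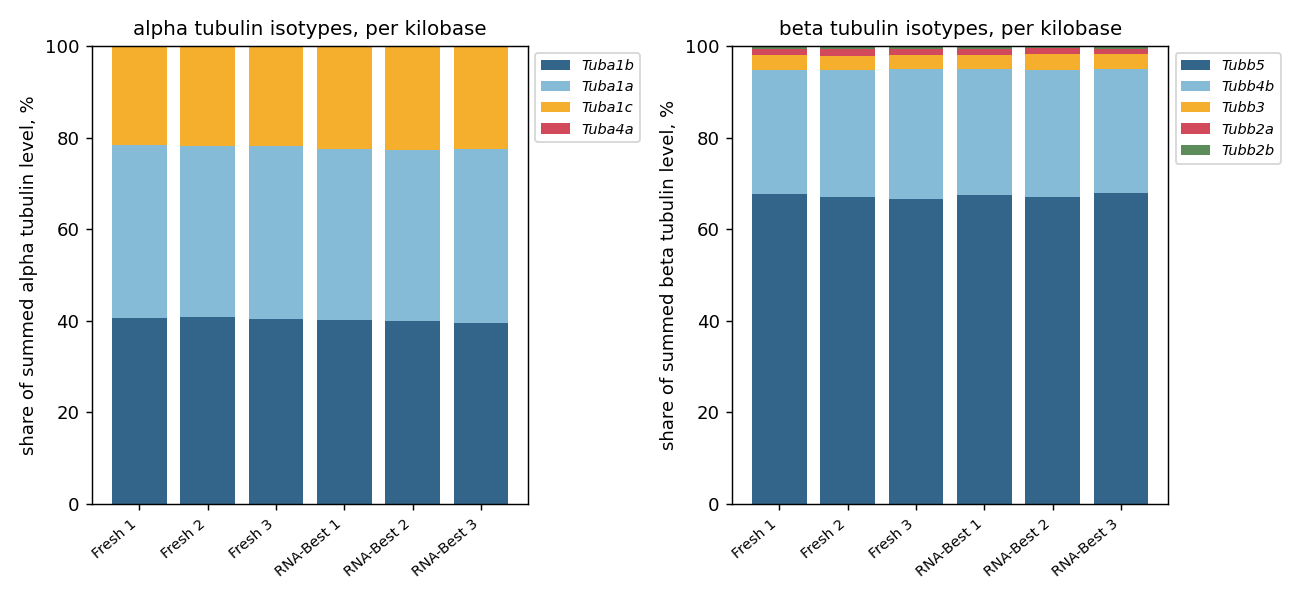
Share of each isotype, in percent, in the summed CPM per kb of the alpha (left) and beta (right) tubulin members, with 1 stacked bar per library. *Tuba1b* and *Tubb5* are the largest segments in every library, and *Tuba1c* is slightly wider in RNA-Best libraries (22.3%) than in fresh libraries (21.6%).

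Near-identical sequence limits what can be said of single isotypes. All stretches of 100 bases of each main transcript were searched in the annotated transcripts of other genes. Within the coding sequence 90.9% of the stretches of *Tuba1b*, 81.5% of *Tuba1a*, 80.4% of *Tuba1c* and 91.9% of *Actg1* occurred in another gene, chiefly in each other, in processed pseudogenes or in other annotated transcripts. For *Tubb2a* and *Tubb2b* the shares were 45% and 46.7%, and for *Tubb4b* 35.3%. *Tubb5* and *Tubb3* shared none. *Tuba4a* shared none of its coding stretches, but 85.7% of the stretches that reach outside it lay in *Stk16*, a kinase gene on the opposite strand that overlaps it. Use of strand in counting was not stated, so that reads of these overlapping genes may not be told apart. By annotation *Tubb4b* also overlapped *Fam166a*, and *Tuba1b* overlapped *Gm41396*, on the opposite strand. On the same strand *Gm49450* overlapped *Tuba1a* and *Tuba1b*, and 2 microRNA genes overlapped *Actg1*. Parts of counts, which arise when a read is divided between features, occurred in every member except *Tuba4a*, also in *Tubb3* and *Tubb5*, and in 47.9% of all tested genes.

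**Figure D5:**
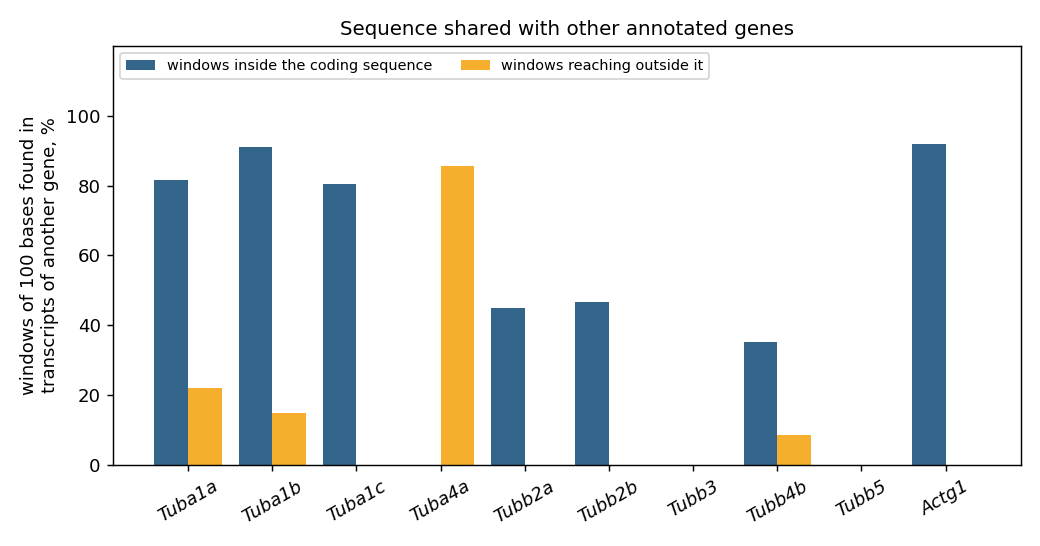
Percent of 100-base stretches of each member's main transcript that occur in annotated transcripts of another gene, inside the coding sequence (blue) and reaching outside it (yellow). *Actg1* (91.9%) and *Tuba1b* (90.9%) have the highest blue bars, *Tuba4a* has only a yellow bar (85.7%), and *Tubb3* and *Tubb5* have none.

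In all, 18 annotated pseudogenes shared at least 1 such stretch with a member, and 13 of these 18 were listed in the deposited table. This set was assembled after the values were seen. All 13 had a negative log2 fold change, 7 of them past the threshold, and 0 were higher past it. They were picked for sequence shared with members, so their counts can hold parts of the same reads. Their direction is therefore not independent of that of the members. Over all 14736 tested genes 7507 were negative and 24.8% were called lower. In the bin of 1 to 2 kb 75.9% were negative and 44.9% were called lower. *Gm14150*, which shares sequence with the alpha trio, stood at 388 ± 10.2 CPM in fresh and 327 ± 6.99 CPM in RNA-Best libraries, and *Gm12715*, which shares sequence with *Actg1*, at 378 ± 15.1 and 355 ± 9.91 CPM (SD, n = 3 each). A sum over members and these pseudogenes does not depend on how reads were split among the genes summed. It still depends on reads divided with genes outside the sum. Of the genes that share such stretches with a member, 7 were missing from the deposited table and so from the sums. The summed level of *Tuba1a*, *Tuba1b* and *Tuba1c* was 3503 ± 27.7 CPM in fresh and 2835 ± 23.0 CPM in RNA-Best libraries, a log2 ratio of -0.30. With 6 pseudogenes added it was 4474 ± 36.8 against 3672 ± 17.7 CPM, a log2 ratio of -0.29. The log2 ratio of *Tubb2a* plus *Tubb2b* was -0.37. That of *Tubb4b* was -0.21 alone and -0.21 with its pseudogenes, and that of *Actg1* was -0.22 alone and -0.18 with its pseudogenes. The *Actg1* pseudogenes held 30.4% of that last sum and were left out of the ratio of *Actg1* to *Actb* given above. In each of these sums all RNA-Best libraries lay below all fresh libraries (exact permutation test, p = 0.1, the smallest possible).

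Promoters are shown for 2 members that carry motifs of known regulators. RefSeq promoters were listed for 9 members, with 250 bases before the start searched on both strands for 4 motifs, of which the CArG box reads the same way on either strand. CCAAT, the site of the factor NF-Y, was found in 6 of 9, against 33.8% of all 32851 promoters. GGGCGG, the core of the Sp1 site, was found in 7 of 9 (32.7% of all), TATAAA in *Tubb2a* (12.4% of all) and the CArG box in *Actg1* (1.47% of all). *Tubb4b* had 5 matches to CCAAT in 250 bases. The stretches below lie just upstream of the annotated genes, both on the minus strand, and the capitals mark these motifs on either strand.
Tubb4b, chr2:25224703-25224852, GRCm38.p6: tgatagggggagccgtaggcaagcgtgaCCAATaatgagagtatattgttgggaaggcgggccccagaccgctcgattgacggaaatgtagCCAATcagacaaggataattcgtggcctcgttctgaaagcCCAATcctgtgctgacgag
Actg1, chr11:120348543-120348645, GRCm38.p6: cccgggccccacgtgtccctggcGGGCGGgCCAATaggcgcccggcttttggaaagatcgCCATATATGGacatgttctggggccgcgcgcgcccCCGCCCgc
A match is a description of the letters and no measurement of binding.

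Of the other tubulins, 7 of 11 listed genes passed the filter on low counts, and 2 were lower, 1 higher and 4 not past the threshold, beside 24.8% lower and 26% higher over all tested genes. *Tubg1*, the gamma-tubulin that nucleates microtubules, fell from 189 ± 3.82 to 165 ± 2.36 CPM (SD, n = 3 each), a log2 fold change of -0.21 (edgeR adjusted p = 1.92e-06) that was -0.13 (adjusted p = 0.00117) with the length offset. *Tubb6*, a further beta tubulin, was lower at -0.34 (adjusted p = 0.0249), and *Tube1*, the epsilon tubulin of centrioles, was higher at 0.19 (adjusted p = 0.0287), but was at 0.01 (adjusted p = 0.926) with the length offset. The call of *Tubb6* was lost with the length offset (-0.27, adjusted p = 0.0858), and without RNA-Best library 1 (adjusted p = 0.0899) or 2 (adjusted p = 0.112), and that of *Tube1* without fresh library 1 (adjusted p = 0.0697) or RNA-Best library 2 (adjusted p = 0.12) or 3 (adjusted p = 0.0795). *Tubg2* stood at -0.04 (adjusted p = 0.626), and *Tubal3* was at 0 in all libraries. Besides *Actb*, 1 of 4 other actins was tested, *Actg2*, at 0.993 CPM in fresh and 0.984 CPM in RNA-Best libraries (adjusted p = 0.955).

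Genes of tubulin folding and autoregulation were lower in 17 of 24, higher in 2 and not past the threshold in 5, with a median log2 fold change of -0.13 and a median length of 3272 bases, beside 24.8% called lower and 26% higher among all tested genes. The prefoldin subunits *Pfdn6* and *Pfdn1*, which hand unfolded actin and tubulin to the chaperonin, changed by -0.37 (edgeR adjusted p = 1.31e-09) and -0.28 (adjusted p = 6.68e-07). *Tbca*, a cofactor that binds beta tubulin after folding, changed by -0.32 (adjusted p = 2.79e-06). *Cct7* and *Cct5*, subunits of the chaperonin itself, changed by -0.20 (adjusted p = 3.63e-06) and -0.15 (adjusted p = 0.000136). With the length offset *Pfdn1* was at -0.15, *Tbca* at -0.18, *Cct5* at -0.09 and *Cct7* at -0.34, all still past the threshold. *Ttc5*, named after its value was seen, stood at 49.1 ± 1.03 and 44.8 ± 2.78 CPM (SD, n = 3 each), a log2 fold change of -0.12 (edgeR adjusted p = 0.0412).

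Genes whose products act on microtubules or nucleate them were longer, and more of them were higher than lower. In the gamma-tubulin complex list, 8 of 13 were higher and 2 lower, with a median log2 fold change of 0.28 and a median length of 8395 bases, against 26% higher and 24.8% lower over all tested genes. *Tubgcp4*, a ring complex subunit, rose by 0.66 (edgeR adjusted p = 1.24e-11), and the scaffold genes *Akap9* and *Cdk5rap2* by 0.47 (adjusted p = 1.44e-10) and 0.42 (adjusted p = 8.08e-11). With the length offset *Akap9* was at 0.01 (adjusted p = 0.843) and *Cdk5rap2* at 0.09 (adjusted p = 0.0536), while *Tubgcp4* stayed past the threshold at 0.46 (adjusted p = 7.9e-08). With the replicate block added to the offset, *Cdk5rap2* was past it at 0.10 (adjusted p = 0.0401). *Tubgcp2* stood at -0.01 (adjusted p = 0.774).

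Of 36 tested microtubule-associated and destabilizing genes, 19 were higher and 3 lower, with a median of 0.16 and a median length of 7873 bases, where 26% of all tested genes were higher and 24.8% lower. *Map1b*, a microtubule-associated protein of neurons, rose from 187 ± 2.47 to 324 ± 14.1 CPM (SD, n = 3 each), a log2 fold change of 0.77 (edgeR adjusted p = 2.55e-20). *Camsap2* and *Camsap1*, which bind microtubule minus ends, rose by 0.46 (adjusted p = 1.46e-12) and 0.42 (adjusted p = 8.44e-12). With the length offset these values were 0.38 for *Map1b*, 0.24 for *Camsap2* and 0.22 for *Camsap1*, all still past the threshold. *Stmn3* and *Stmn1*, stathmins that sequester tubulin dimers, were lower, at -0.39 (adjusted p = 6.41e-14) and -0.21 (adjusted p = 8.66e-08), and *Stmn1* was at -0.12 (adjusted p = 0.000681) with the length offset. The other listed stathmins, named after their values were seen, were *Stmn2* at -0.30 (adjusted p = 0.0083) and *Stmn4* at 0.32 (adjusted p = 0.399).

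Of 15 tested tubulin-modifying enzymes, 7 were higher and 2 lower, where 26% of all tested genes were higher and 24.8% lower. The median log2 fold change of this list was 0.09 and its median length 5817 bases. *Vash1*, which removes the terminal tyrosine of alpha tubulin, rose by 0.82 (edgeR adjusted p = 1.1e-06), while its partner *Svbp* changed by -0.33 (adjusted p = 0.00153). The call of *Svbp* was lost with the length offset (-0.20, adjusted p = 0.063) and after thinning to the total of the smallest library (-0.15, adjusted p = 0.442). *Ttll4*, a glutamylase, rose by 0.53 (adjusted p = 1.02e-12), and by 0.24 (adjusted p = 2.05e-05) with the length offset. The deacetylase *Sirt2* changed by -0.13 (adjusted p = 0.0063), a call lost without RNA-Best library 1 (-0.09, adjusted p = 0.122), and the deacetylase *Hdac6* stood at 0.05 (adjusted p = 0.329).

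Of 26 tested genes of actin monomer binding and nucleation, 12 were lower and 5 higher, with a median of -0.11 and a median length of 3106 bases, beside 24.8% called lower and 26% higher among all tested genes. *Cfl1*, the actin-severing cofilin, fell from 1009 ± 24.9 to 848 ± 20.7 CPM (SD, n = 3 each), a log2 fold change of -0.26 (edgeR adjusted p = 5.51e-10). *Twf2*, a monomer-binding twinfilin, changed by -0.33 (adjusted p = 0.000316). *Diaph2*, a formin, rose by 0.40 (adjusted p = 9.61e-05), and was at 0.10 (adjusted p = 0.323) with the length offset. *Dstn*, a relative of cofilin, stood at -0.06 (adjusted p = 0.0654), and at -0.08 (adjusted p = 0.0225) without fresh library 2. With the GC offset it was -0.16 (adjusted p = 3.99e-06), and without the filter on low counts -0.11 (adjusted p = 0.000921). The part of transcript length in the differences between these lists was not tested beyond the offset.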

How the data were processed

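The authors aligned single reads to GRCm38 (mm10) with STAR 2.5.1b, with GENCODE annotation, and counted reads per gene with featureCounts 1.5.0-p1. The deposited values are estimated counts that are not scaled for library size, and the setting that divided some reads is not given in the sources used here. Counts were rounded and tested with edgeR 4.0.16 (R 4.3.3, quasi-likelihood, TMM scaling, filterByExpr with a minimum count of 10). CPM were scaled to the unrounded column total. Limma 3.58.1 (voom) and DESeq2 1.42.0 (Wald test, size factors) gave alternatives. Lengths, positions and coding sequences came from a newer GENCODE release for that assembly, matched by identifier for 46574 of 47069 genes. Length and GC offsets were loess fits (span 0.5) in each library. Thinning drew each library without replacement down to the smallest total, 4909418 counts. Totals from 4909418 to 47438746 set the precision, and intervals cover these libraries only. Code was tested on simulated data.

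The members, gene lists and tests were chosen with earlier results of these data known. Besides the members and *Actb*, the text names from each list up to 3 called genes with the largest change, up to 2 with the highest level and any at 0 throughout. *Ttc5*, *Stmn2*, *Stmn4* and the pseudogenes fall outside this rule. Identity between members was computed on coding bases, because protein sequences were not used here. The coding ends of some members are not reported here.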

Additional observations from a re-analysis of the deposited data

How the results depend on the processing

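All 10 members kept a negative log2 fold change under each of the 16 alternatives, and *Tuba1a*, *Tuba1b*, *Tuba1c*, *Tubb2a*, *Tubb4b*, *Tubb5* and *Actg1* kept their side of the threshold in all of them. The number of members called lower lay between 8 and 10, as it did when single libraries were left out. *Tuba4a* was not past the threshold under the DESeq2 Wald test (-0.25, adjusted p = 0.0791) or after thinning (-0.20, adjusted p = 0.26), and ranged from -0.35 to -0.19 without single libraries. *Tubb3* was not past it under DESeq2 (-0.14, adjusted p = 0.0812), the length offset (-0.0522, adjusted p = 0.426), the GC offset (-0.0513, adjusted p = 0.416) or thinning (-0.0617, adjusted p = 0.555), and ranged from -0.18 to -0.11 without single libraries. *Tubb6* was not past it under DESeq2 (-0.37, adjusted p = 0.0826), the GC offset (-0.26, adjusted p = 0.0904) or thinning (-0.32, adjusted p = 0.225), but was with block and length offset (-0.34, adjusted p = 0.0298). *Tube1* was not past it under DESeq2 (0.20, adjusted p = 0.102), the GC offset (0.06, adjusted p = 0.503) or without the filter (0.14, adjusted p = 0.173), and stood at 0.34 after thinning. *Sirt2* was not past it with the GC offset (-0.09, adjusted p = 0.0828) or after thinning (-0.06, adjusted p = 0.41), and *Svbp* not with block and length offset (-0.21, adjusted p = 0.0554). *Tubb2b* changed more than *Tubb2a* with the GC offset (-0.34 against -0.32), without fresh library 3 (-0.37 against -0.36) and without RNA-Best library 3 (-0.38 against -0.35). The cause was not tested. Another thinning routine gave far fewer calls and no change of *Tubb2a*. It was set aside after this was seen, and the cause was not found. That routine is not among the 16 alternatives, so the statement that *Tubb2a* kept its side in all of them leaves it out.

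Values near 0 changed sign in some fits. *Tubg2* was at 0.0524 with the length offset, 0.0414 with the GC offset and 0.0430 with block and length offset. *Hdac6* was at -0.0482 and -0.0347, and *Dstn* at 0.0305 and 0.0291, with the length offset without and with the block. *Tubgcp2* was at 0.0128 with the GC offset, 0.0291 after thinning and between -0.0333 and 0.0166 without single libraries. *Actg2* was at -0.0227 without the filter, -0.0320 with the block and between -0.30 and 0.25 without single libraries. The difference in the share of *Tuba1a* ranged from -0.293 to 0.139 percentage points without single libraries and that of *Tuba4a* from -0.00779 to 0.0371. Shares kept their direction when levels were not divided by length or were divided by the longest transcript.

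No pairing by the replicate numbers in the titles was seen: deviations of same-numbered libraries from their group means correlated at -0.00840, 0.0122 and -0.00771. These deviations over all tested genes also hold counting noise, so they cannot tell whether same-numbered libraries shared a culture. With the replicate number as a block, 7472 genes were called against 7479, all 10 members stayed past the threshold, and among the other named genes *Dstn* passed it (-0.06, adjusted p = 0.0456). With the block and the length offset, *Tubb2b* (-0.24, adjusted p = 0.0538) and *Tubb3* (-0.0467, adjusted p = 0.51) did not. Summing members with pseudogenes was an alternative chosen after seeing the data.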
